A study of Mus musculus with 4 samples.

Results

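The genes described here encode the subunits of the proteasome. They were taken as all genes of the deposited count table whose symbol is Psma, Psmb, Psmc or Psmd followed by a number, leaving out Psmb8 and Psmb9. The rule found 37 of 51826 genes, namely 8 Psma, 9 Psmb, 6 Psmc and 14 Psmd genes. It used symbols and no measured value. RNA was sequenced from dermal papilla cells (DPCs), the mesenchymal cells at the base of the hair follicle, and dermal sheath cells (DSCs), which line the follicle. Both were grown from vibrissa follicles of EGFP-transgenic C57BL/6J mice that were 5 to 6 weeks old, and the labels give the genotype of all 4 groups as WT. Passage 3 is called low passage and passage 9 high passage, all cells were kept in DMEM with serum, and the labels give no agent that differed between groups. Every group is a single library (1), so no difference below has a replicate check and no p-value is given for a contrast between 2 libraries. Passage cannot be told apart from time in culture or from any difference in when libraries were made.

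The 26S proteasome degrades proteins that carry ubiquitin chains. Its barrel, the 20S core, is a stack of rings built from alpha subunits (Psma), which gate the entrance, and beta subunits (Psmb), among which Psmb5, Psmb6 and Psmb7 carry the proteolytic sites. The 19S cap holds a ring of ATPases (Psmc), which unfold the substrate, and non-ATPase subunits (Psmd), which bind ubiquitin chains, remove them and hold the cap together. The symbols Psmd5, Psmd9 and Psmd10 belong to chaperones that help to assemble the ATPase ring and leave the finished particle. The transcription factor Nrf1 (gene Nfe2l1) drives subunit genes through antioxidant response elements when proteasome activity is low, and CCAAT boxes are common in subunit promoters.

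The promoter stretches below are shown because most members had lower counts at passage 9 in DPCs, and because these are the stretches on which known regulators of the family act. They come from RefSeq (GRCm38.p6) and run 5′ to 3′ on the strand of the gene, from 250 bases before the RefSeq start, and end at the start or where an annotated exon begins. Capitals mark the antioxidant response element (TGACNNNGC) or the CCAAT box, each searched on both strands, and the 2 motifs do not overlap in the stretches shown. Psma7 and Psmd2 had among the largest differences with passage, Psmb5 and Psmb6 are catalytic subunits, and Psmc6 is the ATPase whose count was higher at passage 9 in DPCs.
Psma7 (chr2:180042465-180042714, - strand): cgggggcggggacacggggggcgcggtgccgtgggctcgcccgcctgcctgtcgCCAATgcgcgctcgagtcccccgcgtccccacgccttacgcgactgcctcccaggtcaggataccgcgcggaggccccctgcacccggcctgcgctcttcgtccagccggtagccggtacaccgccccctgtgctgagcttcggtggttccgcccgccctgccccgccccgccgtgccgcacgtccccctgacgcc
Psmb5 (chr14:54618023-54618245, - strand): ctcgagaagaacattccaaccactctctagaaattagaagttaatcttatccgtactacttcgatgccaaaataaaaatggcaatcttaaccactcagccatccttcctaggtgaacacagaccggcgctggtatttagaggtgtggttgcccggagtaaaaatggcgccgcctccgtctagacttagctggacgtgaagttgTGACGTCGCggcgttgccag
Psmb6 (chr11:70525107-70525356, + strand): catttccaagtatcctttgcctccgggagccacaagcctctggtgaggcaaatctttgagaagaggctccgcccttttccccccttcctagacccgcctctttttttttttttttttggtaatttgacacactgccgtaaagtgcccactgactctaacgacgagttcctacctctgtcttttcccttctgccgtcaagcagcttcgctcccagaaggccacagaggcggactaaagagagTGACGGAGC
Psmc6 (chr14:45329574-45329787, + strand): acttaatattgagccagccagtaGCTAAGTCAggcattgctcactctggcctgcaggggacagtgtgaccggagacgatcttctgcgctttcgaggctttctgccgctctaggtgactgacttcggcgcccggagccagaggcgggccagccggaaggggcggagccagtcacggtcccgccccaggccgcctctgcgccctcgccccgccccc
Psmd2 (chr16:20651402-20651651, + strand): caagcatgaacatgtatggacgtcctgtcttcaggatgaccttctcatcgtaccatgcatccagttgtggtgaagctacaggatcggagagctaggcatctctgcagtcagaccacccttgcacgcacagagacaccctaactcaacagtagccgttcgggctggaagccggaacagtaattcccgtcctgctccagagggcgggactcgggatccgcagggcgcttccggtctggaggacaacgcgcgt

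Of the 37 members, 30 had an entry in the promoter table, and Psma8, Psmb1, Psmb2, Psmb7, Psmc3, Psmd3 and Psmd7 did not. In the full entries, which run 50 bases past the start, an antioxidant response element was present in 5 of 30 members (16.7%) and in 12.5% of all 27025 promoters. The 5 were Psmb5 (TGACGTCGC), Psmb6 (TGACGGAGC), Psmc6 (GCTAAGTCA), Psmd9 (TGACCCCGC) and Psmd12 (GCTGTGTCA). A CCAAT box was present in 12 of 30 members (40.0%) and in 37.9% of all promoters. By class it was found in 5 of 7 alpha, 2 of 6 beta, 2 of 5 ATPase and 3 of 12 Psmd promoters. These are matches of letters, and shares this close to those of all promoters are no result about the members. In DPCs the log2 differences of passage 9 from passage 3, given below, were -0.23 for Psmb5 and -0.59 for Psmb6, which have the element. For Psmc6, Psmd9 and Psmd12, which also have it, they were 0.38, -0.23 and -0.17. Members with neither motif included Psmd2 (-1.11), Psmd1 (0.02) and Psmd6 (0.08). A link between motif and difference was not tested.

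The libraries held between 34981284 and 47604059 counts. Levels are given as CPM, the count scaled to a common library size by the TMM method so that libraries of unlike composition can be compared, or as FPKM, which also divides by transcript length. A change is the log2 ratio of TMM-scaled counts with a prior count of 2, and passage 9 stands over passage 3 except where DPCs are set against DSCs. A gene counted as differing where the ratio was at least 1.5-fold. The 95% intervals are exact Clopper-Pearson intervals of 1 library's share of the counts of 2 libraries. They cover counting error only and compare 2 libraries, not 2 conditions. Even counts were in excess, as when each mate of a pair is counted, and the intervals are then too narrow. For 35 members the mean raw count was at least 10, as for 16734 genes in all, and these were compared. Psma8, a testis form of an alpha subunit, had 0 counts in both DPC libraries and in high-passage DSCs and 2 counts in low-passage DSCs. Psmb11, a thymus form of a beta subunit, had 8 counts in high-passage DPCs and 0 in the other 3 libraries. Zero counts leave room for as many as 3, between 0.0659 and 0.0837 CPM per library.

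The first comparison asked how the proteasome genes differed between low and high passage. In DPCs, 29 of 35 members were lower at passage 9, with a median change of -0.38, while the median over all genes tested was 0.03 and 48.5% of these were lower. In DSCs, 28 of 35 were lower with a median of -0.11, beside 0.00 and 49.7% for all genes. At 1.5-fold, 11 of 35 members (31.4%) were lower in DPCs, where 25.6% of all genes tested were. The share of members is thus close to the background, and among genes with a mean count of at least 1000, which all members but Psmb10 and Psmd10 reach, it was 21%. At 1.5-fold, 1 member (2.86%), Psmd5, was higher in DPCs, where 26.5% of all genes were. In DSCs no member was lower by 1.5-fold (14% of all genes), and only Psmd5 was higher (16.7% of all genes). No member reached the 4-fold threshold of the study in either cell type, where 9.94% of all genes in DPCs and 3.82% in DSCs did. Members that were lower in both cell types, whatever the size, numbered 27 of 35 (77.1%), and 34.4% of all genes did so. Psmd5 was also the only member higher by 1.5-fold in both, which 10.5% of all genes were. The interval of the change excluded 0 for 32 members in DPCs and 25 in DSCs. It did so for 77.6% and 66.7% of all genes.

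The classes had unlike median changes, which 1 library per group does not allow to test. In DPCs all 15 core subunits tested were lower at passage 9, with a median of -0.59, and 8 of them (53.3%) by 1.5-fold. Of all genes tested, 48.5% were lower and 25.6% by 1.5-fold, and the latter share was 21% among genes with a mean count of at least 1000. The median was -0.55 for the 7 alpha subunits, -0.64 for the 8 beta subunits, -0.10 for the 6 ATPases and -0.22 for the 14 Psmd genes. In DSCs the medians were -0.12, -0.13, -0.11 and -0.08 in the same order. None of these medians changed sign under another scaling, filter or prior count. Summed over the alpha subunits, the level was 644.7 CPM in low-passage and 428.2 CPM in high-passage DPCs, and 541.1 and 479.3 CPM in low- and high-passage DSCs. For the beta subunits the sums were 771 and 489.1 CPM in DPCs and 665.6 and 587.2 CPM in DSCs. For the ATPases they were 709.1, 678.1, 691.3 and 648.7 CPM in the order low- and high-passage DPCs, low- and high-passage DSCs. The Psmd genes gave 1629, 1337, 1556 and 1452 CPM in that order. High-passage DPCs had the lowest sum in the alpha, beta and Psmd classes, and high-passage DSCs had the lowest in the ATPases. The core median FPKM over the ATPase median FPKM, a ratio within a library that no scaling between libraries can move, was 1.11 and 0.762 in DPCs of low and high passage, and 0.98 and 0.971 in DSCs. It was therefore lowest in high-passage DPCs and nearly equal in the 2 DSC libraries.

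**Figure D1:**
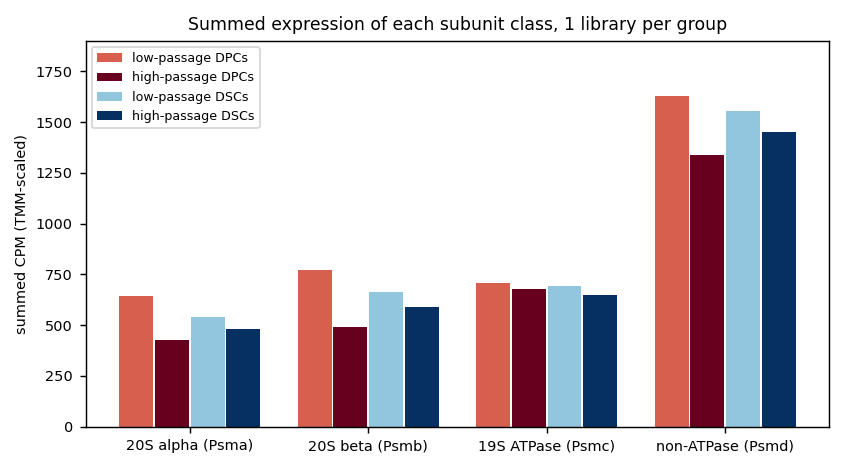
Summed TMM-scaled CPM of the subunits of each class (horizontal axis), with 1 bar for each library and no error bar because each group is 1 library. The alpha and beta bars are lowest in high-passage DPCs (428.2 and 489.1 CPM), whereas the ATPase bars lie between 648.7 and 709.1 CPM.

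Among alpha subunits, which form the outer rings and gate of the core, Psma5 had the largest change in DPCs. Its level was 63.0 and 29.8 CPM in DPCs of low and high passage, and 46.1 and 40.1 CPM in DSCs. The change was -1.08 in DPCs (95% interval -1.19 to -0.98) and -0.20 in DSCs (-0.30 to -0.11). Psma7 was at 70.4 and 35.3 CPM in DPCs and 59.0 and 45.2 CPM in DSCs, with changes of -0.997 and -0.39, and the last was the largest of the class in DSCs. Psma1 followed with 95.3 and 56.6 CPM in DPCs and 87.5 and 68.8 CPM in DSCs, a change of -0.75 and -0.35. After correction for transcript length and GC content, given below, its change in DPCs was -0.53, under 1.5-fold. The high-passage library lay below the low-passage library in both cell types for all 7 alpha subunits tested. The smallest changes in DPCs were those of Psma2 (-0.32) and Psma4 (-0.45). In DSCs Psma2 (-0.08) and Psma3 (-0.09) had the smallest. Psma5 shares 50% of its 50-base windows with other transcripts, among them Gm8394, which had at most 23 counts.

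Beta subunits carry the catalytic sites. Psmb5, the chymotrypsin-like site, was at 78.9 and 67.3 CPM in low- and high-passage DPCs and at 65.9 and 62.2 CPM in DSCs. Its changes of -0.23 (-0.31 to -0.15) and -0.08 (-0.16 to -0.01) were the smallest of the core in DPCs. Psmb6, the caspase-like site, was at 88.7 and 59.0 CPM in DPCs and 74.2 and 71.0 CPM in DSCs, with changes of -0.59 and -0.06. The first was -0.26 after the same correction, again under 1.5-fold. Psmb7, the trypsin-like site, was at 98.1 and 60.8 CPM in DPCs and 77.9 and 69.4 CPM in DSCs, with changes of -0.69 and -0.17. The 3 catalytic subunits thus did not differ alike with passage in DPCs, and Psmb5 was nearest to 0. Psmb5 shares 54.1% of its windows with Gm3375 and other sequences, and Gm3375 had 55 to 91 counts against 2412 to 2902 for Psmb5. Psmb7 shares 9.3% of its windows with Nek6, which overlaps it on the other strand. At low and high passage Nek6 had 1988 and 1996 counts in DPCs and 2685 and 3858 in DSCs. Psmb10, which replaces Psmb7 in the immunoproteasome, had the fewest counts of the members tested, with 269 and 201 in DPCs and 293 and 361 in DSCs. Its change in DSCs (0.04, -0.19 to 0.26) was not distinguishable from 0 at this depth. The structural subunits Psmb2 and Psmb3 had the largest changes of the class in DPCs, at -0.998 and -0.96. Psmb2 was at 104.7 and 52.4 CPM in DPCs and at 102.8 and 72.8 CPM in DSCs, where its change of -0.50 (-0.56 to -0.43) was the largest fold of any member except Psmd5. Psmb3 was at 112.0 and 57.5 CPM in DPCs and 89.0 and 76.8 CPM in DSCs (-0.21). The changes were -0.94 and -0.16 for Psmb4, and for Psmb1 -0.39 and -0.10.

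**Figure D2:**
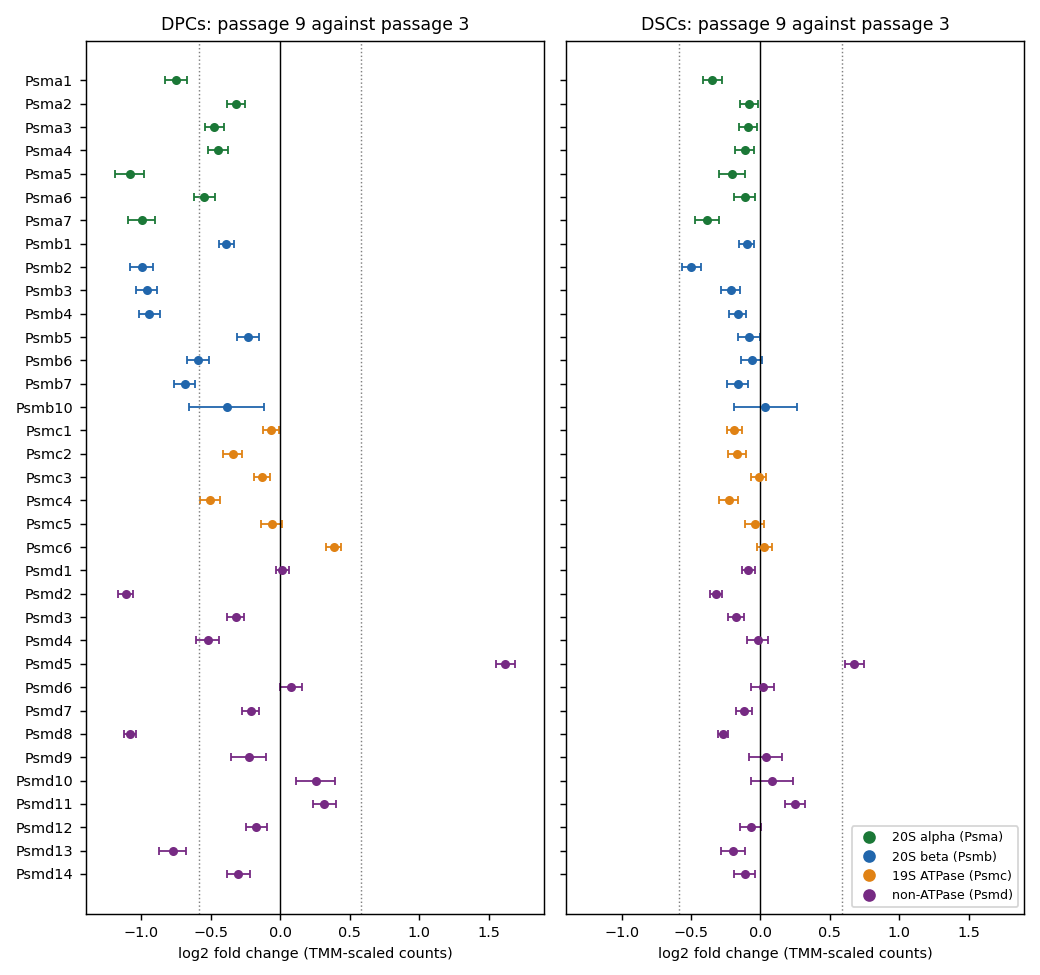
Log2 fold change of passage 9 against passage 3 (horizontal axis) for each of the 35 members tested, in DPCs (left) and DSCs (right), with 95% counting intervals as bars and dotted lines at 1.5-fold. All alpha and beta subunits lie below 0 in DPCs, the ATPases lie between -0.51 and 0.38, and Psmd5 stands alone at 1.62 in DPCs and 0.68 in DSCs.

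In DPCs the ATPases of the cap had the smallest median change of the classes. Psmc4 was at 99.9 and 70.3 CPM in DPCs and 88.6 and 75.6 CPM in DSCs, changes of -0.51 and -0.23, the largest decrease of the class in both cell types. Psmc2 followed with 110.6 and 87.2 CPM in DPCs and 108.4 and 96.4 CPM in DSCs (-0.34 and -0.17). Psmc1 was at 129.1 and 123.3 CPM in DPCs and 133.7 and 117.4 CPM in DSCs (-0.07 and -0.19). For Psmc3 the levels were 146.2 and 133.5 CPM in DPCs and 145.3 and 143.9 CPM in DSCs (-0.13 and -0.01). Psmc3 overlaps Slc39a13 on the other strand, which had 4300 and 10032 counts in DPCs, and strand use in counting is not given in the sources used here. Psmc5 was at 79.9 and 76.6 CPM in DPCs and 80.7 and 78.3 CPM in DSCs, and the interval of both changes held 0. Psmc6 was the exception, at 143.4 and 187.2 CPM in DPCs, higher at passage 9 by 0.38 (0.33 to 0.44), and at 134.5 and 137.1 CPM in DSCs, a change of 0.03 whose interval held 0. No ATPase reached 1.5-fold in either direction in either cell type.

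Among Psmd genes the ubiquitin-binding scaffold Psmd2 had the largest decrease in DPCs. At low and high passage it was at 257.7 and 119.1 CPM in DPCs, and at 240.4 and 192.8 CPM in DSCs. The changes were -1.11 (-1.17 to -1.06) and -0.32 (-0.36 to -0.28). Psmd8, a lid subunit with the highest count of the members in 3 of 4 libraries, was at 365.8 and 172.6 CPM in DPCs and 349.8 and 290.1 CPM in DSCs, with changes of -1.08 and -0.27. For both genes the high-passage DPC library was the lowest of the 4, and high-passage DSCs came next. Psmd13, also of the lid, had changes of -0.78 and -0.19 in DPCs and DSCs, but with log2(FPKM + 1) its change in DPCs was -0.54, under 1.5-fold. This leaves 10 members lower by 1.5-fold on that scale, where 18.2% of all genes were. Psmd13 shares 7.9% of its windows with Sirt3, which overlaps it on the other strand. Sirt3 had 217 and 447 counts in DPCs and 192 and 371 in DSCs. Psmd4, the other ubiquitin receptor, was at 82.4 and 57.4 CPM in DPCs and 69.7 and 68.7 CPM in DSCs, with changes of -0.52 and -0.02. The deubiquitinase Psmd14, which cuts ubiquitin chains off the substrate, was at 75.7 and 61.5 CPM in DPCs and 70.3 and 65.0 CPM in DSCs, changes of -0.30 and -0.11. The lid subunit Psmd11 was higher at passage 9 in both, at 59.0 and 73.6 CPM in DPCs and 65.7 and 78.0 CPM in DSCs (0.32 and 0.25). In FPKM Psmd11 was at 24.9 and 34.9 in DPCs and at 26.7 and 26.3 in DSCs, so the difference in DSCs was not seen on that scale. The scaffold Psmd1 (0.02 and -0.09) and the lid subunits Psmd3 (-0.32 and -0.18), Psmd6 (0.08 and 0.02), Psmd7 (-0.21 and -0.12) and Psmd12 (-0.17 and -0.07) had changes in DPCs and DSCs that stayed under 1.5-fold.

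The assembly chaperones of the ATPase ring behaved unlike each other. Psmd5 lies at chr2:34849734-34874968 on the - strand (GRCm38). At low and high passage it had 2448 and 7347 counts in DPCs and 2685 and 5157 counts in DSCs. Its level was 66.6 and 204.9 CPM in DPCs and 70.9 and 113.2 CPM in DSCs. It was 3.08-fold higher at passage 9 in DPCs (log2 1.62, 1.56 to 1.69) and 1.60-fold in DSCs (0.68, 0.61 to 0.74), and both high-passage libraries lay above both low-passage libraries. Psmd5 in FPKM over Psmc2, an ATPase it binds during assembly, was 0.256 and 1 in DPCs of low and high passage, and 0.285 and 0.522 in DSCs. That ratio is taken within each library and needs no scaling between them. Psmd10 (gankyrin) was at 21.2 and 25.4 CPM in DPCs (0.25, 0.12 to 0.40) and at 16.7 and 17.6 CPM in DSCs (0.08), where the interval held 0. Psmd9 was at 31.8 and 27.2 CPM in DPCs (-0.23) and at 28.1 and 28.9 CPM in DSCs (0.04). Psmd9 shares 24.7% of its windows with the antisense gene Gm26745, which had 0 counts in every library. Cutal overlaps Psmd5 on the other strand and had 0 and 38 counts in DPCs and 4 and 52 in DSCs, against 2448 to 7347 for Psmd5.

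A fit of cell type and passage over all 4 libraries allowed a test of passage and of cell type. The spread rests on 1 residual degree of freedom, the gap between the passage changes of DPCs and DSCs, and on no repeated cultures. By edgeR's quasi-likelihood test no member had an adjusted p under 0.05 for passage, and 0% of all genes did. The lowest among members was that of Psmd5 (adjusted p = 0.2255, with a change of 1.15, higher at passage 9 in 2 of 2 cell types). At an unadjusted p under 0.05 there were 3 members, Psmd5, Psmb2 and Psma7, beside 16.9% of all genes. DESeq2 called 1 member, Psmd5 (adjusted p = 0.02644), beside 6.06% of all genes. For cell type, edgeR called no member, with 0% of all genes under an adjusted p of 0.05 and 8.25% under an unadjusted one, where members numbered 0. DESeq2 called no member for cell type, beside 3.21% of all genes.

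Changes were larger in DPCs. The absolute change was larger in DPCs than in DSCs for 33 of 35 members (94.3%) and for 69.8% of all genes tested. Across the 35 members the changes of the 2 cell types correlated with r = 0.881 (Pearson) and rho = 0.774 (Spearman), and across all genes 0.466 and 0.517. These are correlations across genes from the same 4 libraries, and genes are not independent replicates, so no p is given. The difference between the cell types was largest for Psmd5 (0.95, counting interval 0.85 to 1.04) and Psma5 (-0.88, -1.02 to -0.74). Psmd8 and Psmd2 followed, at -0.81 and -0.80. For Psmc5, Psmd6, Psmd10, Psmd11 and Psmd12 the interval of the difference held 0. Whether these differences exceed the variation between cultures could not be tested with 1 library per group.

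**Figure D3:**
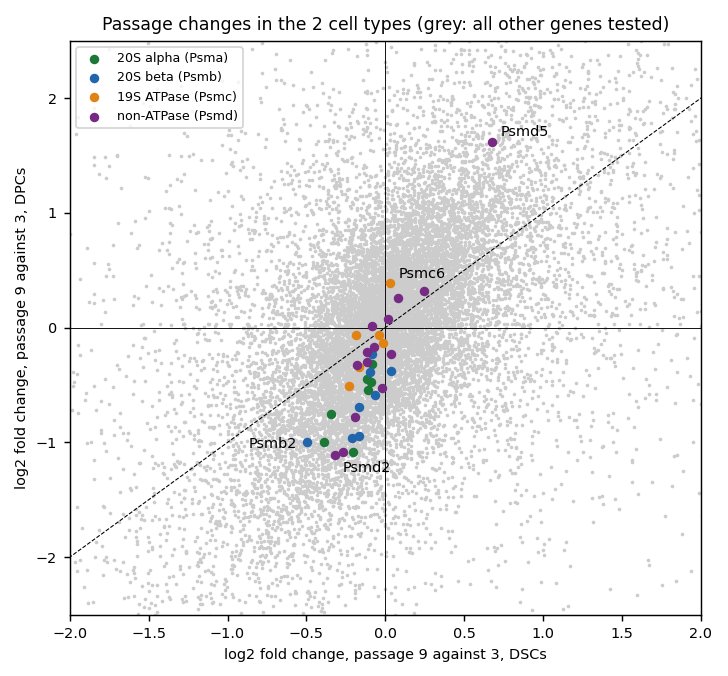
Log2 fold change of passage 9 against passage 3 in DSCs (horizontal axis) and DPCs (vertical axis), with members coloured by class, all other genes tested in grey (genes beyond the axes are not drawn) and a dashed line where both changes are equal. Most members fall below the dashed line and below 0 in DPCs, and Psmd5 lies in the upper right at 0.68 and 1.62.

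The second comparison set DPCs against DSCs at the same passage, and it rests on the same 4 libraries as the passage changes above. At passage 3, 28 of 35 members were higher in DPCs, with a median difference of 0.16. Of all 16734 genes, 8404 were higher, with a median of 0.00. No member differed by 1.5-fold, where 14.1% of all genes were lower in DPCs and 11.9% higher. The interval excluded 0 for 27 members and 59.5% of all genes. The largest differences were those of Psma5 (0.45) and Psma6 (0.40), both higher in DPCs, and in the other direction Psmd11 (-0.15) and Psmd5 (-0.09). The median was 0.25 for alpha and 0.23 for beta subunits, 0.02 for ATPases and 0.10 for Psmd genes. At passage 9 the median difference was -0.11, with 26 of 35 members lower in DPCs beside 51% of all genes. By total counts it was -0.01 and on the FPKM scale 0.00 with the opposite sign. The median of all genes moved too, from -0.01 to 0.08 by total counts and to 0.06 or 0.09 on the FPKM scale. The members' median thus stayed below that of all genes. At 1.5-fold, 3 of 35 members were lower in DPCs, namely Psmd8 (-0.75), Psmd2 (-0.69) and Psmb4 (-0.61), beside 19.7% of all genes. With log2(FPKM + 1) Psmd8 alone passed, at -0.66, while Psmd2 was at -0.56 and Psmb4 at -0.47, and under the length and GC correction Psmb4 was also at -0.47. Psmd5 was higher by 0.86, beside 17.6% of all genes higher, and Psmd10 by 0.52. The interval excluded 0 for 29 members and 70.7% of all genes. The core was lower in DPCs at passage 9 under each scaling (median -0.27). The ATPase median of -0.07 changed sign by total counts, on the FPKM scale and under the length and GC correction. The Psmd median of -0.08 did so by total counts and on the FPKM scale. By total counts and on the FPKM scale the median of all genes rose as well, as given above. Under the length and GC correction it was 0.01.

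Levels per transcript length ranged from 6.06 FPKM for Psmb10 to 221.4 FPKM for Psmd8 in low-passage DPCs. Among DPCs at low passage the order was led by Psmd8, Psmb1 (146.0 FPKM) and Psmb3 (133.5 FPKM), in low-passage DSCs by Psmd8 (203.4), Psmb1 (120.3) and Psmb2 (106.1), and in high-passage DSCs by Psmd8 (168.2), Psmb1 (110.0) and Psmc3 (95.5). In high-passage DPCs the leading genes were Psmb1 (110.8), Psmc6 (110.1) and Psmd8 (106.1), which were close to each other. Psmb10, Psmd9 and Psmd10 held the 3 lowest places in all 4 libraries. Within the ATPases, which are present in equal copies in the particle, the highest level was 1.82 to 2.46 times the lowest. The order of levels had a Spearman rho of 0.838 to 0.982 between libraries, across 35 members.

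**Figure D4:**
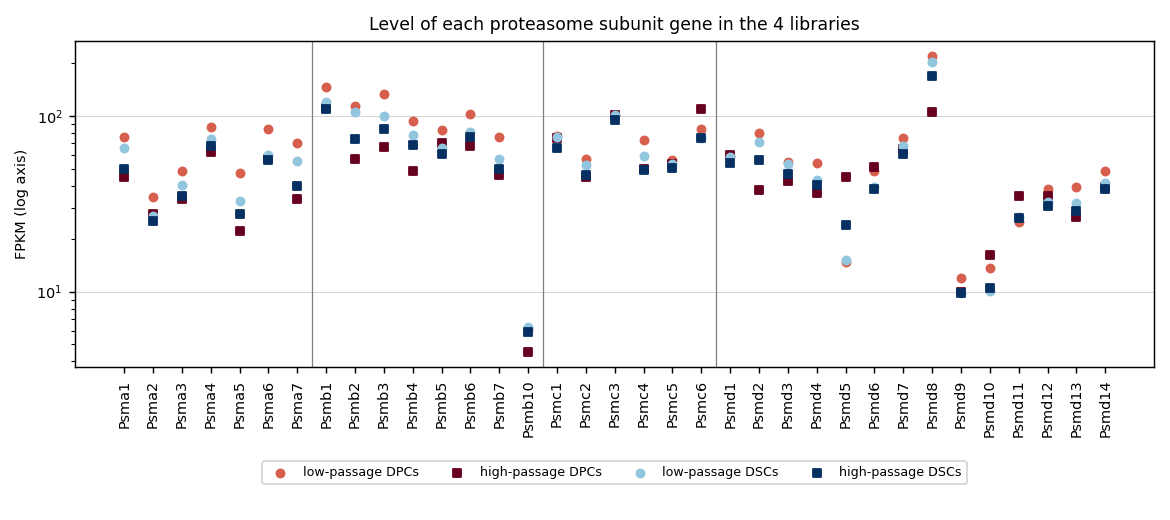
Level of each of the 35 members tested in FPKM (vertical log axis), with 1 point per library and grey lines between the alpha, beta, ATPase and Psmd classes. Psmd8 is highest in 3 of 4 libraries, Psmb10 is lowest at 4.52 to 6.25 FPKM, and the dark red squares of high-passage DPCs lie lowest for most core subunits and highest for Psmd5 and Psmc6.

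Genes that act with the proteasome were read from fixed lists. Of the chaperones that build the 20S core, 4 of 5 were lower by 1.5-fold at passage 9 in DPCs and none in DSCs, with medians of -0.87 and -0.39, where 25.6% of all genes in DPCs and 14% in DSCs were lower. Psmg4 had 163 and 30 counts in DPCs and 151 and 176 counts in DSCs, a change of -2.34 in DPCs, while Pomp differed by -0.35 there and by 0.21 in DSCs. Among the remaining 19S subunits, the small lid subunit Sem1 was lower at passage 9 in both (-0.80 in DPCs, -0.15 in DSCs), and the ubiquitin receptor Adrm1 was higher (0.42 and 0.08). Of the proteasome-bound enzymes, the deubiquitinase Usp14 had changes of -0.60 in DPCs and 0.45 in DSCs. Of 6 shuttle factors that carry ubiquitinated proteins to the cap, 2 were lower by 1.5-fold in DPCs, namely Rad23b (-0.89) and Ddi2 (-0.71), and none in DSCs, a count near the background of all genes. The activators Psme4 and Psme1 had changes of -0.90 and 0.54 in DPCs and of -0.46 and 0.22 in DSCs. The 2 immunoproteasome subunits left out by the rule were low, with Psmb8 at 106, 41, 103 and 143 counts and Psmb9 at 26, 25, 40 and 28 counts in the order low- and high-passage DPCs, low- and high-passage DSCs. Nfe2l1, which encodes Nrf1, had changes of 0.36 (DPCs) and 0.12 (DSCs). Its partners Maff, Mafk and Mafg had changes of 1.29, 0.68 and 0.44 in DPCs and 0.56, 0.36 and 0.02 in DSCs. In DPCs, 2 of 8 genes of that list were higher and 2 lower by 1.5-fold, near the 26.5% and 25.6% of all genes, the latter being Ddi2 (-0.71), which cleaves Nrf1, and Vcp (-0.66), which extracts it from the membrane.

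Other measurements moved with passage. All 6 proliferation markers (Mki67, Top2a, Ccnb1, Cdk1, Pcna and Mcm2) were lower by 1.5-fold in DPCs at passage 9 (median -1.80) and 4 of 6 in DSCs (median -1.13), beside 25.6% and 14% of all genes. Their summed level was 632 and 188.1 CPM in DPCs and 537.9 and 252.4 CPM in DSCs, and their part in the proteasome result was not tested. Of 7 immune markers, 6 passed the minimum and all 6 were lower in both cell types, with a summed level of 117.3 and 64.4 CPM in DPCs and 168.2 and 93.7 CPM in DSCs and Cd3e at 0 in every library. The part of immune cells was not tested. Endothelial markers summed to 2.42 and 0.11 CPM in DPCs of low and high passage and to 5.49 and 0.99 CPM in DSCs. Schwann cell markers summed to 7.3 and 3.7 CPM in DPCs and to 13.7 and 5.1 CPM in DSCs. Both sums were thus low, and lower at passage 9 in both cell types. The part of these cells was not tested. Of 5 keratinocyte markers, Krt5, Krt14 and Cdh1 were at 0 counts in all 4 libraries, Epcam had 4 counts in high-passage DPCs alone and Krt10 had 33 to 61. Of 5 melanocyte markers, Mlana, Dct, Tyr and Tyrp1 were at 0 counts and Pmel had 17 to 47. The 7 fibroblast markers were present in every library, but their summed level was 18720 and 7316 CPM in DPCs of low and high passage and 27580 and 22690 CPM in DSCs. In DPCs 4 of the 7 were lower by 1.5-fold and 1 higher, with a median change of -1.31, against -0.26 in DSCs. Within that list Col1a1 and Col1a2 had changes of -2.57 and -1.31 in DPCs, and Pdgfra one of 1.42. The sheath markers Acta2 and Tagln summed to 9021 and 2474 CPM in DPCs and to 7321 and 5761 CPM in DSCs, and both were lower by 1.5-fold in DPCs alone. The part of both lists in the proteasome result was not tested. Among 5 papilla markers, Alpl had 6 to 23 counts and Lepr 0 to 18, so these 2 were nearly absent. Lef1 had 508 and 2 counts in DPCs and 101 and 55 in DSCs, and Sox2 had 1677 and 1491 in DPCs and 269 and 178 in DSCs. Ncam1 had 3642 and 1673 counts in DPCs and 11755 and 15584 in DSCs, so it was higher in DSCs, while Sox2 was higher in DPCs. In such bulk libraries fewer cells of a type and less RNA per cell cannot be told apart.

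The passage change in DPCs also varied with transcript length over all genes. Genes whose longest annotated transcript is under 1500 bases had a median change of -0.34, and the medians were 0.01 from 1500 to 3000 bases and 0.12 from 3000 to 6000 bases. The core genes are short, with a median length of 1239 bases for alpha and 1247 bases for beta subunits, against 1851 bases for ATPases. In DPCs the members were lower than all genes within each of the 3 ranges. Their medians were -0.50, -0.32 and -0.16, the last from 4 members. In DSCs they were not lower under 1500 bases, where the median was -0.10 for 12 members and -0.14 for all genes. From 1500 to 3000 and from 3000 to 6000 bases the members' medians in DSCs were -0.11 and -0.13. For all genes they were 0.02 and 0.04. When changes were corrected for length and GC, an alternative chosen after seeing the data, the core median in DPCs was -0.55 and 14 of 15 core subunits were lower, 7 of them by 1.5-fold (46.7%, beside 25.2% of all genes with a length). The median over all members was -0.27. The ATPase median was 0.00, and that of Psmd genes -0.18. Psmb5 changed sign under this correction, to 0.10, as did Psmc1 (0.05) and Psmc5 (0.14). Psmc6 came to 0.05, while Psmb6 came to -0.26 and Psma1 to -0.53, both then under 1.5-fold. Psmd5 stayed at 1.51 and Psmd2 at -1.12 (DPCs).

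**Figure D5:**
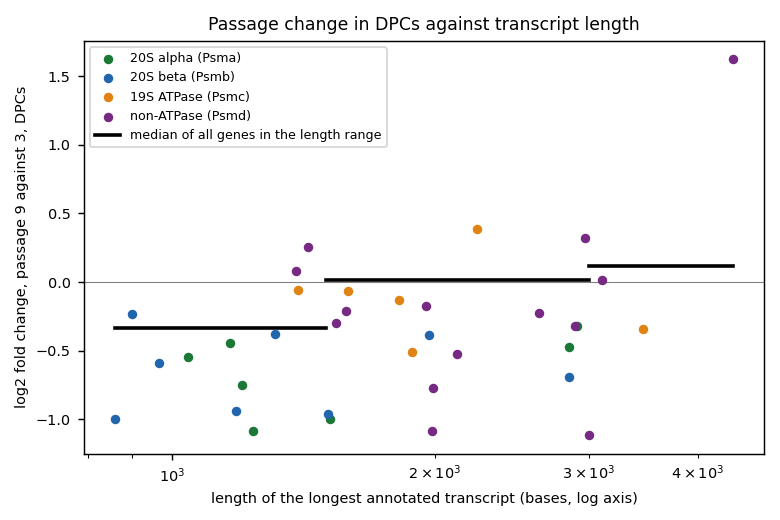
Log2 fold change of passage 9 against passage 3 in DPCs (vertical axis) against the length of the longest annotated transcript (horizontal log axis), with members coloured by class and black lines at the median of all genes tested in each length range. The black lines rise from -0.34 to 0.12, and most alpha and beta subunits lie below the line of their range.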

How the data were processed

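RNA was sequenced in 4 libraries of cultured mouse DPCs and DSCs, 1 per cell type and passage. The authors deposited raw counts per gene, whole numbers that were not normalized, and FPKM values, which they had normalized for transcript length and depth. The submitters' processing notes name Bowtie 0.12.2 and the builds mm8 and mm9 without a role, whereas 94.2% of 51633 gene positions found in GENCODE M21 were identical to GRCm38, as were those of 30 of 37 members. The counting program and its use of strand are not given in the sources used here, and the labels and the study's methods name different library kits.

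Counts were scaled by TMM in edgeR 4.0.16 (R 4.3.3, limma 3.58.1) over the 16734 genes whose raw counts averaged 10 or more, and fold changes used a prior count of 2. The additive model of cell type and passage used the quasi-likelihood test of edgeR (p adjusted by Benjamini-Hochberg), with DESeq2 1.42.0 as the alternative. The scripts were tested on simulated data with less spread than these data and the same passage change in both cell types. The simulation therefore does not show how the additive test behaves on these data. Groups came from the labels. Genes named are all members by class, with values for the catalytic subunits, ATPases, ubiquitin receptors, Psmd14, chaperones, tissue forms and the 2 extreme changes on each side of each class. Psma1, Psmb1, Psmb4 and Psmd13 and the genes that act with the proteasome were added from their values or from the lists. The members and lists were chosen with earlier results of these data known. Protein sequences were not used here.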

Additional observations from a re-analysis of the deposited data

How the results depend on the processing

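Of 158 settings of the main results, 131 gave the same answer, 25 moved and 2 reversed, and of 1612 settings of single members and class medians 1323 gave the same answer and 289 moved. Of these 1612, 78 changed sign, none of them from a value of 1.5-fold or more. With 1 library per group no library could be left out and no replicates could be paired. In DPCs the median over all members was -0.27 after correction for length and GC content, an alternative chosen after seeing the data. Members lower in DPCs numbered 19 at the lower fold threshold tried (34.6% of all genes) and 3 at 2-fold (15%). Members higher in DPCs numbered 2 with no minimum count (28.7%) and 2 at the lower fold threshold (36.4%). In DSCs 1 was lower with no minimum (17% of all genes) and 3 at the lower fold threshold (25.2%), and 0 were higher at 2-fold (8.55%). At passage 3 the median difference between DPCs and DSCs was 0.26 by total counts, 0.25 by log2(FPKM + 1) and 0.25 by log2(FPKM + 0.1). The median of all genes was 0.09, 0.05 and 0.08 in that order. In DPCs 1 member was lower with no minimum (17.6% of all genes) and 5 higher at the lower fold threshold (22.1%). At passage 9 the median was -0.00854 by total counts and reversed to 0.00494 by log2(FPKM + 1) and 0.00539 by log2(FPKM + 0.1). The median of all genes was 0.083, 0.058 and 0.086 in that order, and -0.014 in the main setting. At that passage 1 member was lower in DPCs on either FPKM scale (9.45% and 15.8% of all genes in the same order). Members lower numbered 9 at the lower fold threshold (30.9%) and 0 at 2-fold (11%). Members higher numbered 2 by total counts (20.7%), 2 with no minimum (22.2%) and 2 on either FPKM scale (11.9% and 20%). They numbered 3 at the lower fold threshold (28.1%) and 0 at 2-fold (9.11%). The passage term called 1 member by DESeq2. Cuts at other folds change counts by their construction, calls added with no minimum rest on at most 8 counts, and the cause of the other shifts was not tested. If both mates of a pair were counted, the intervals are too narrow. With halved counts the interval excluded 0 for 31 members in DPCs, beside 32 with the counts as given.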
